A study of Homo sapiens with 9 samples.

Results

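PLA1A, CACNA1D, CRISP3, LEF1, TDRD1, NCALD, ARHGDIB, PDE3B, VWA2 and HLA-DMB are genes known to be high in prostate tumours that carry an ERG fusion. All 10 were found by gene name among the 60612 genes of the deposited table, each in 1 row. The RNA came from VCaP, an established line of human prostate cancer cells that carries the TMPRSS2-ERG fusion. Every sample label names VCaP, although the series' design text speaks of retinal mRNA, and the luminal prostate genes KLK2 and KLK3 averaged 828 and 68.9 FPKM in the control libraries (FPKM is fragments per kilobase of a transcript at equal depth). Cells were transfected for 4 days with KMT2C siRNA#1, with KMT2C siRNA#2 or with Control siRNA, with 3 libraries in each group. The labels call both KMT2C groups KMT2C deficiency and the control group KMT2C normal. All 9 libraries come from 1 cell line, without a matched line that lacks the fusion. No source used here gives the sequences of the siRNAs or says that replicates were separate cultures, so p-values cover only the spread between these libraries, which may be technical.

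In the fusion, the androgen-driven promoter of TMPRSS2 is joined to ERG, an ETS family transcription factor that binds DNA with a GGAA core and that normal prostate epithelium scarcely makes. The members are known from tumours, where their RNA is higher when the fusion is present, and they code for unrelated proteins: secreted proteins, an enzyme of phospholipids, an inhibitor of small GTPases, calcium-handling proteins, a transcription factor, a germline protein and a chain of an antigen-presentation complex. KMT2C is a methyltransferase of histone H3 lysine 4 that acts at enhancers.

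The libraries held 58462215 to 70726213 expected counts, and 12830 genes with at least 1 FPKM in at least 3 libraries were tested. FPKM accounts for length, so levels of different genes can be set side by side. The targeted gene KMT2C was at 1.54, 1.80 and 2.28 FPKM with siRNA#1 and at 1.72, 1.64 and 1.73 FPKM with siRNA#2, against 13.7, 12.1 and 12.9 FPKM in control cells. ERG itself was at 32.8, 33.9 and 33.6 FPKM with siRNA#1 and at 33.4, 33.3 and 30.2 FPKM with siRNA#2, against 65.7, 63.0 and 63.1 FPKM in control cells. Both siRNAs thus lay far below control for KMT2C and for ERG, with no overlap of the groups. Every p below is from edgeR's quasi-likelihood test, adjusted by Benjamini-Hochberg over all tested genes. ERG fell by 0.96 ± 0.05 on the log2 scale with siRNA#1 (± standard error, adjusted p = 6.92e-06) and by 1.04 ± 0.05 with siRNA#2 (adjusted p = 1.58e-06). The direct difference between the siRNAs was 0.08 ± 0.05 for ERG (adjusted p = 0.260) and 0.17 ± 0.12 for KMT2C (adjusted p = 0.309). TMPRSS2 fell by 2.35 with siRNA#1 (adjusted p = 2.96e-07) and by 1.22 with siRNA#2 (adjusted p = 7.46e-07). Unlike ERG and KMT2C, it was also called between the siRNAs, with a difference of -1.13, lower with siRNA#1.

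While ERG was lower by a like amount under both siRNAs, its associated genes did not move as a group. With siRNA#1, CRISP3, PLA1A, ARHGDIB, HLA-DMB and PDE3B rose, LEF1 and VWA2 fell, and TDRD1, NCALD and CACNA1D did not pass the test at an adjusted p of 0.05. That is 7 of 10 members called, beside 41.7% of all tested genes. The 5 that rose stand beside 21.2% of tested genes that rose, and the 2 that fell beside 20.5% that fell. With siRNA#2, CRISP3 and PDE3B rose, PLA1A, ARHGDIB, HLA-DMB and CACNA1D fell, and LEF1, VWA2, TDRD1 and NCALD were not called. These 6 of 10 stand beside 49.3% of tested genes, of which 24.4% rose and 24.9% fell. The median log2 fold change over the members was 0.36 with siRNA#1 and -0.25 with siRNA#2, against 0.01 and 0.02 over all tested genes.

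Tested directly, siRNA#1 against siRNA#2, 5 members were higher with siRNA#1 (CRISP3, PLA1A, ARHGDIB, HLA-DMB and CACNA1D), 3 were lower (LEF1, VWA2 and PDE3B), and TDRD1 and NCALD were not called. These 8 of 10 stand beside 39.5% of tested genes called in that contrast, 20.6% of them higher and 18.9% lower with siRNA#1. PLA1A, ARHGDIB and HLA-DMB were called in opposite directions by the 2 siRNAs, 3 of 10 members beside 3.24% of tested genes. CRISP3 and PDE3B were called in the same direction, upward, beside 25.9% of tested genes called in one direction or the other by both. The 2 comparisons with control share the same 3 control libraries. Counted by library ranges alone, 7 members did not overlap control with siRNA#1 (53.1% of tested genes), 8 did not with siRNA#2 (62.8%), and 9 did not overlap between the siRNAs (52.3%). Each of the 10 members passed the filter on low values, but CACNA1D did so only through 4 libraries with siRNA#1 or Control siRNA. That favours its call with siRNA#2 and its call between the siRNAs, both of which are counted above.

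**Figure D1:**
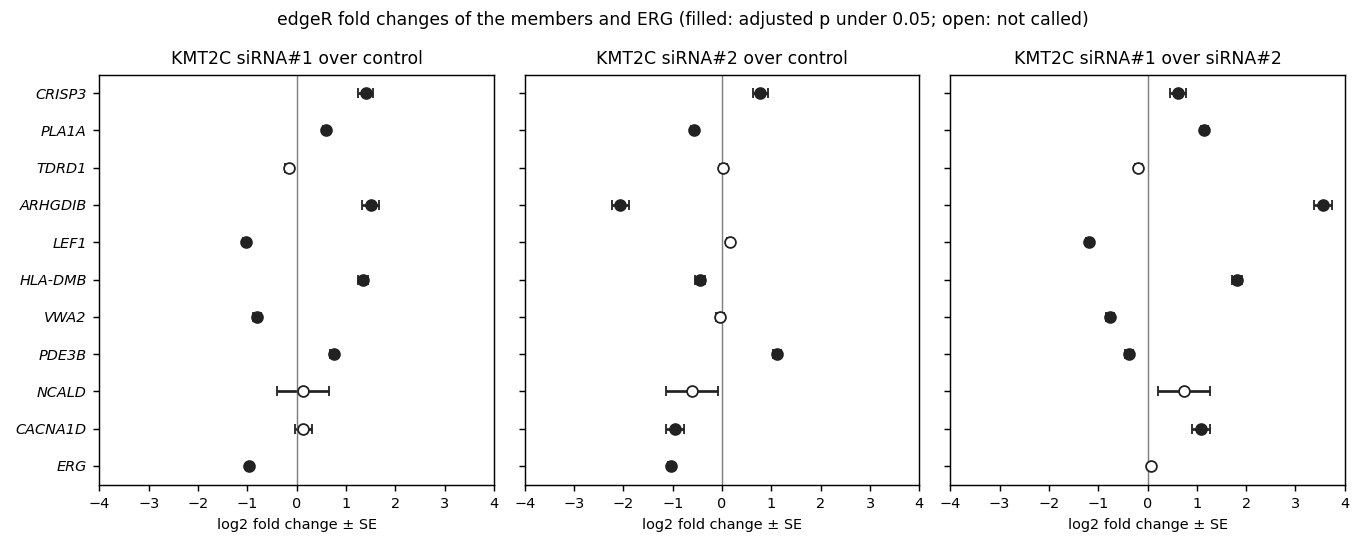
Log2 fold change of each member and of ERG by edgeR's quasi-likelihood fit, with siRNA#1 and siRNA#2 each set against Control siRNA and siRNA#1 set against siRNA#2. Points are fitted values, bars are ± 1 standard error and filled points passed an adjusted p of 0.05. PLA1A, ARHGDIB and HLA-DMB lie on opposite sides of 0 for the 2 siRNAs, while CRISP3 and PDE3B lie above 0 for both.

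The RefSeq promoter table on GRCh38.p14 gives windows of 250 bases before and 50 after a gene's start, and held 13 windows for 8 of the 10 members, all but NCALD and PDE3B. Shown here are a window for each of the 3 members that moved in opposite directions and for CRISP3, the most abundant member, which rose with both siRNAs. Each is read 5′ to 3′ in the direction of transcription, and capitals mark a match to AGGAAGT, a longer ETS form, on either strand. The ARHGDIB window is chr12:14948847-14949146 on the minus strand, the PLA1A window chr3:119597635-119597934 on the plus strand, the HLA-DMB window chr6:32940979-32941278 on the minus strand and the CRISP3 window chr6:49744339-49744638 on the minus strand.
ARHGDIB: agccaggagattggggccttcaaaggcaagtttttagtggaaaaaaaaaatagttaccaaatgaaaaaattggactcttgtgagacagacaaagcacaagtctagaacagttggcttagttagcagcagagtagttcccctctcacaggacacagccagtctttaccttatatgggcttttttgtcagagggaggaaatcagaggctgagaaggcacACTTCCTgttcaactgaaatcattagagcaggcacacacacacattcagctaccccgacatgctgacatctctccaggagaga
PLA1A: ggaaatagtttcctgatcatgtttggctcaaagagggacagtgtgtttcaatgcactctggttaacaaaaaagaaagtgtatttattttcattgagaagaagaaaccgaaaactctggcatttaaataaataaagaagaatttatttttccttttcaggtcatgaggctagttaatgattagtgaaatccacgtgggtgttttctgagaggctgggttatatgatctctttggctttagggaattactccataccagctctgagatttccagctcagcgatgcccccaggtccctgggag
HLA-DMB: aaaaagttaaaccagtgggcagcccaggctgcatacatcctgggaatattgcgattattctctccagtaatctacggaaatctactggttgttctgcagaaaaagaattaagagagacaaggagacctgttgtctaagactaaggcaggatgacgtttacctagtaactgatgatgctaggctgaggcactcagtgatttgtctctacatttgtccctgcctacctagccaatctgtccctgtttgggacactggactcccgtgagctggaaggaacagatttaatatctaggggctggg
CRISP3: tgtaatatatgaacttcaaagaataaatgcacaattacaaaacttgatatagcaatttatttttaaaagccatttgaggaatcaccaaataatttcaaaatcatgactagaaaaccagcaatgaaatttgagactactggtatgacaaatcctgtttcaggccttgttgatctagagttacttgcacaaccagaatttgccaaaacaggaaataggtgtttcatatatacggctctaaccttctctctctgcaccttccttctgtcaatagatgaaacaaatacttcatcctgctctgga
AGGAAGT on either strand occurred in this ARHGDIB window, the only one of the 13 members' windows with it, and in 8.24% of all 35116 windows of the table. The other ARHGDIB windows, not printed here, held no match. By gene it is 1 of 8 members, beside 9.91% of all genes in the table. The shorter ETS core CCGGAA occurred in 3 of the 13 windows, those of TDRD1 (2 overlapping windows) and VWA2, and in 17.2% of all windows. Both forms hold GGAA, but 1 GGAA cannot belong to both. Both CCGGAA matches lie inside their window, before the gene start that RefSeq gives for it. For VWA2 that start lies inside the gene as the deposited table gives it. Both matches read TTCCGG on the gene's own strand, as these stretches from chromosome 10 show. They are taken from chr10:114179037-114179336 and chr10:114239364-114239663 on the plus strand.
TDRD1 site: cacaagctgcTTCCGGggaaggcgga
VWA2 site: gccgctctccTTCCGGtgagtcccag
A TCF/LEF form, CTTTGA, occurred in 5 of the 13 windows and in 12.9% of all windows. These 5 hold 3 ARHGDIB windows, 2 of which overlap and share sites, so by gene it is 3 of 8 members (ARHGDIB, CRISP3 and PLA1A), beside 15.5% of all genes in the table. These are matches of letters in short windows and show no binding.

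Among the secreted products, CRISP3 was the most abundant member in every group. It codes for a cysteine-rich secretory protein found in exocrine secretions, and its gene lies at chr6:49727384-49744437 on the minus strand of GRCh38. CRISP3 was at 432, 360 and 335 FPKM with siRNA#1 and at 263, 251 and 237 FPKM with siRNA#2, against 154, 162 and 106 FPKM in control cells. The 3 groups did not overlap: every siRNA#1 library was above every siRNA#2 library, and these were above every control library. CRISP3 rose by 1.40 ± 0.16 on the log2 scale with siRNA#1 (adjusted p = 2.40e-04) and by 0.78 ± 0.16 with siRNA#2 (adjusted p = 0.00343). Between the siRNAs it differed by 0.62 ± 0.16 (adjusted p = 0.0139), a call that is lost at a stricter threshold of 0.01. In control cells its mean was at the 98.54th percentile of the tested genes. Its paralog CRISP2, whose product is known from the testis, averaged 0.752 FPKM with siRNA#1, 0.740 FPKM with siRNA#2 and 0.279 FPKM in control cells, below the filter. Of the 9 CRISP and related CAP domain genes looked at, GLIPR2 alone was tested, and it fell with both siRNAs (by 0.87, adjusted p = 0.0139, and by 0.62, adjusted p = 0.0459).

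PLA1A, the next most abundant member in all 3 groups, codes for a secreted phospholipase that acts on phosphatidylserine. The gene lies at chr3:119597875-119629811 on the plus strand. PLA1A was at 83.6, 87.5 and 79.0 FPKM with siRNA#1 and at 38.8, 36.1 and 39.8 FPKM with siRNA#2, against 56.2, 53.2 and 54.1 FPKM in control cells. Control lay between the 2 siRNA groups, and the libraries of each group stayed close together. PLA1A rose by 0.59 ± 0.06 with siRNA#1 (adjusted p = 1.56e-04) and fell by 0.57 ± 0.06 with siRNA#2 (adjusted p = 1.0e-04), changes of nearly equal size and opposite sign. Set against each other, the siRNAs differed by 1.16 ± 0.06 (adjusted p = 4.51e-06). Of 8 related lipase genes 3 were tested. LPL and LIPG, 2 lipases of the vessel wall, were called with neither siRNA, and LIPH, which makes lysophosphatidic acid, averaged 2.34 FPKM with siRNA#1 and 0.613 FPKM with siRNA#2, against 2.95 FPKM in control cells. LIPH fell by 2.32 ± 0.17 with siRNA#2 (adjusted p = 1.10e-05) and was at -0.36 ± 0.16 with siRNA#1 (adjusted p = 0.106). Its siRNA#2 libraries were at 0.513 to 0.686 FPKM, below the filter's 1 FPKM. LIPH thus passed only through the other groups, where it is high, which favours that fall.

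VWA2 codes for a secreted protein with von Willebrand factor A domains found at basement membranes, and lies at chr10:114239254-114294489 on the plus strand. VWA2 was at 4.04, 4.15 and 4.26 FPKM with siRNA#1 and at 7.43, 7.51 and 6.50 FPKM with siRNA#2, against 7.75, 7.09 and 6.53 FPKM in control cells. The siRNA#1 libraries were below all others, and the siRNA#2 libraries overlapped control. VWA2 fell by 0.80 ± 0.08 with siRNA#1 (adjusted p = 1.35e-04) and was at -0.05 ± 0.08 with siRNA#2 (adjusted p = 0.646), with a difference of -0.75 ± 0.08 between the siRNAs (adjusted p = 1.63e-04). Of 13 related genes with the domain 4 were tested, and with siRNA#1 1 rose (VWA8, by 0.42, adjusted p = 0.0216) and 1 fell (VWA5B2, log2 fold change -0.73, adjusted p = 0.00142), while with siRNA#2 2 rose and 2 fell. The 2 that rose with siRNA#2 were VWA8 (by 0.83, adjusted p = 5.23e-04) and COCH, known from the inner ear (by 1.20, adjusted p = 0.00103), and the 2 that fell were VWA5B2 (log2 fold change -0.97, adjusted p = 2.08e-04) and VWA1 (-0.28, adjusted p = 0.0448). Such calls were made for 41.7% of all tested genes with siRNA#1 and for 49.3% with siRNA#2.

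**Figure D2:**
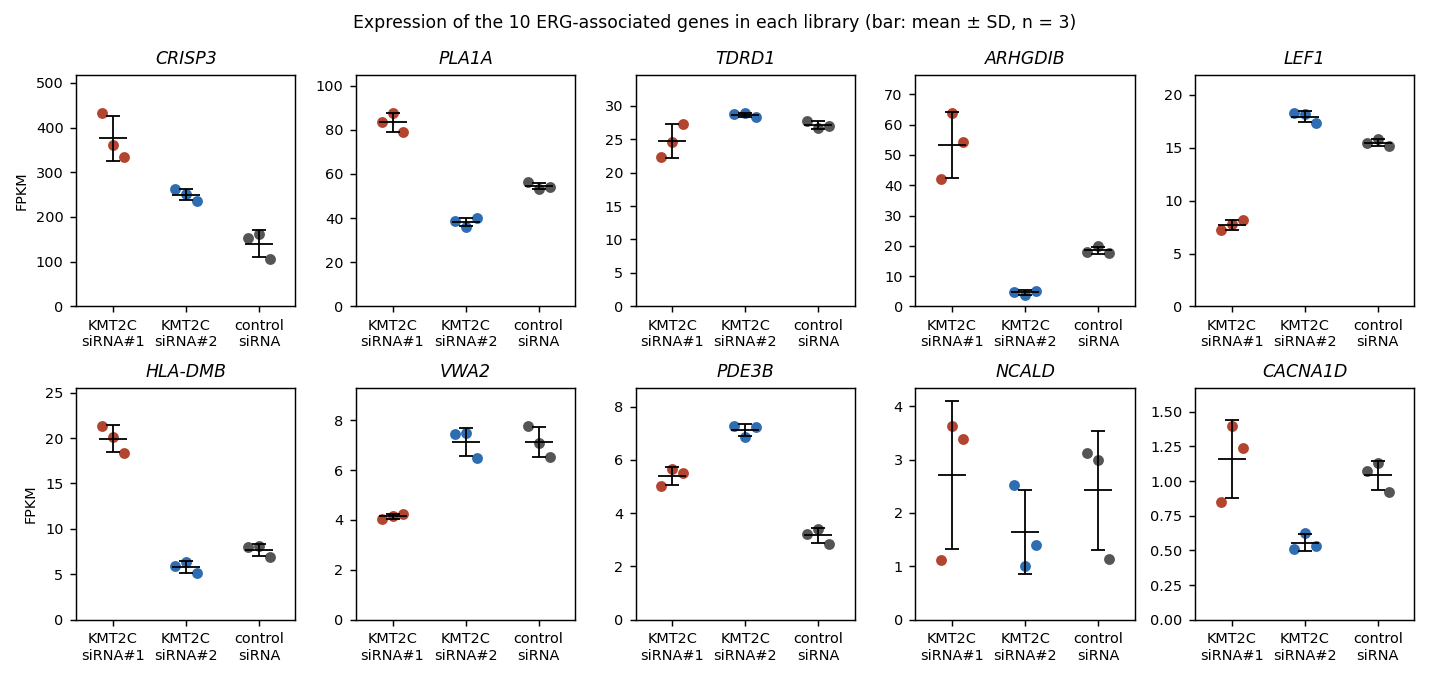
FPKM of each member in each of the 9 libraries, on linear axes that start at 0, with siRNA#1 left of siRNA#2 and Control siRNA at the right of each panel. Points are libraries, and bars are the group mean ± SD (n = 3). ARHGDIB is high with siRNA#1 at 41.9 to 63.8 FPKM and low with siRNA#2 at 3.67 to 5.22 FPKM, while the NCALD libraries spread widely within each group.

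Among the signalling regulators, ARHGDIB had the widest separation of the groups. Its product is a GDP-dissociation inhibitor that holds small GTPases in the cytosol and is best known from blood cells. The gene lies at chr12:14942031-14961601 on the minus strand, and the window printed above lies within it. ARHGDIB was at 41.9, 63.8 and 54.2 FPKM with siRNA#1 and at 4.87, 3.67 and 5.22 FPKM with siRNA#2, against 18.0, 19.9 and 17.5 FPKM in control cells. All siRNA#1 libraries lay above control and all siRNA#2 libraries below it. ARHGDIB rose by 1.50 ± 0.17 with siRNA#1 (2.83-fold, adjusted p = 2.30e-04) and fell by 2.06 ± 0.18 with siRNA#2 (4.17-fold, adjusted p = 2.40e-05). The difference of 3.56 ± 0.19 between the siRNAs (11.8-fold, adjusted p = 4.04e-06) was the largest of any member.

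The related inhibitor ARHGDIA, made in most tissues, did not follow it. ARHGDIA averaged 88.1 FPKM with siRNA#1 and 81.9 FPKM with siRNA#2, against 65.2 FPKM in control cells, and rose with both (by 0.41, adjusted p = 9.32e-04, and by 0.27, adjusted p = 0.00554). The ratio of mean ARHGDIA to mean ARHGDIB was 1.65 with siRNA#1 and 17.8 with siRNA#2, against 3.53 in control cells. Of 9 related inhibitors and their GTPases besides ARHGDIB, 8 were tested: 5 rose and 1 fell with siRNA#1, and 4 rose and 3 fell with siRNA#2. These counts stand beside 41.7% of all tested genes called with siRNA#1 and 49.3% with siRNA#2. RAC1, which drives lamellipodia, rose with both (by 1.12, adjusted p = 4.56e-06, and by 0.68, adjusted p = 1.49e-05). RHOC fell with both (by 0.67, adjusted p = 0.0441, and by 1.36, adjusted p = 0.00134), and RHOB fell with siRNA#2 (by 1.05, adjusted p = 4.61e-04) and was at -0.30 with siRNA#1 (adjusted p = 0.133). RHOA, the most abundant GTPase of the list, averaged 163 FPKM with siRNA#1 and 136 FPKM with siRNA#2, against 137 FPKM in control cells, and rose by 0.22 with siRNA#1 (adjusted p = 0.0377). RAC3 and the inhibitor ARHGDIG rose with both siRNAs (RAC3 by 0.40 and 0.35, adjusted p = 0.0180 and 0.0279; ARHGDIG by 0.61 and 1.06, adjusted p = 0.0239 and 0.00133), and CDC42, which acts in cell polarity, fell with siRNA#2 (by 0.91, adjusted p = 0.00743) and was at -0.39 with siRNA#1 (adjusted p = 0.180).

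PDE3B, a phosphodiesterase that breaks down cyclic AMP and is known from insulin's action in fat cells, lies at chr11:14643804-14872044 on the plus strand. PDE3B was at 5.03, 5.67 and 5.52 FPKM with siRNA#1 and at 7.26, 6.86 and 7.24 FPKM with siRNA#2, against 3.23, 3.42 and 2.84 FPKM in control cells. Both siRNA groups were above control, and siRNA#2 above siRNA#1, without overlap. PDE3B rose by 0.75 ± 0.08 with siRNA#1 (adjusted p = 1.67e-04) and by 1.11 ± 0.08 with siRNA#2 (adjusted p = 9.63e-06), with -0.37 ± 0.08 between them (adjusted p = 0.00637). Its paralog PDE3A was near 0 FPKM in all groups. Of 19 rows of other cyclic nucleotide phosphodiesterases 4 were tested. PDE8A and PDE7A rose with siRNA#1 (by 0.82, adjusted p = 2.04e-04, and by 0.37, adjusted p = 0.00372), and PDE9A, which acts on cyclic GMP, fell with siRNA#2 (by 1.08, adjusted p = 1.31e-05) and was at -0.09 with siRNA#1 (adjusted p = 0.420). PDE7A also rose with siRNA#2 (by 0.23, adjusted p = 0.0268), PDE8A was at 0.24 there (adjusted p = 0.0507), and PDE6D was called with neither siRNA.

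CACNA1D, a pore-forming subunit of L-type voltage-gated calcium channels, had the lowest mean of the members in every group, and lies at chr3:53328963-53813733 on the plus strand. CACNA1D was at 0.846, 1.39 and 1.24 FPKM with siRNA#1 and at 0.510, 0.624 and 0.533 FPKM with siRNA#2, against 1.07, 1.13 and 0.920 FPKM in control cells. The siRNA#2 libraries were below all others, and the siRNA#1 libraries straddled control. CACNA1D fell by 0.96 ± 0.18 with siRNA#2 (adjusted p = 0.00202), was at 0.13 ± 0.17 with siRNA#1 (adjusted p = 0.586) and differed by 1.09 ± 0.18 between the siRNAs (adjusted p = 0.00149). No siRNA#2 library reached the filter's 1 FPKM. CACNA1D passed it only through siRNA#1 and control libraries, where it is higher, which favours both of these calls. It overlaps CHDH and DCP1A on the opposite strand, with 2448 to 6195 and 4345 to 5684 expected counts per library against its own 756 to 2102, and whether strand was used in counting is not given in the sources used here. Its value is therefore uncertain. Of 17 other calcium channel subunits 5 were tested, and with siRNA#1 CACNA1H, a T-type pore, fell (by 0.50, adjusted p = 0.00135), while with siRNA#2 CACNA1B, an N-type pore, rose by 1.02 (adjusted p = 4.59e-04) and CACNA2D1, an accessory subunit, fell (by 0.90, adjusted p = 6.87e-04).

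NCALD, a neuronal calcium sensor with EF hands, lies at chr8:101686542-102124907 on the minus strand and varied more between libraries of 1 group than between groups. NCALD was at 1.12, 3.62 and 3.39 FPKM with siRNA#1 and at 2.52, 1.00 and 1.41 FPKM with siRNA#2, against 3.13, 3.00 and 1.14 FPKM in control cells. Each group held at least 1 library near 1 FPKM, and the groups overlapped. The highest library was 3.24 times the lowest with siRNA#1 and 2.51 times with siRNA#2, against 2.75 times in control cells. The coefficient of variation of NCALD was 51.1% with siRNA#1 and 47.9% with siRNA#2, against 46.0% in control cells, where the median of the tested genes was 10.9%, 7.64% and 8.67% in the same groups. NCALD was at 0.14 ± 0.53 with siRNA#1 (adjusted p = 0.861) and at -0.61 ± 0.53 with siRNA#2 (adjusted p = 0.380), with 0.74 ± 0.53 between them (adjusted p = 0.308), so changes of about the size of these standard errors were not detectable. Of 12 related calcium sensors 2 were tested: NCS1 rose with both siRNAs (by 0.92, adjusted p = 1.43e-05, and by 1.10, adjusted p = 2.19e-06), and HPCAL1 rose with siRNA#1 (by 0.80, adjusted p = 8.31e-04) and was at 0.26 with siRNA#2 (adjusted p = 0.0955).

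LEF1 is the transcription factor among the members, a DNA-binding partner of beta-catenin in Wnt signalling, and lies at chr4:108047545-108168956 on the minus strand. LEF1 was at 7.18, 7.79 and 8.14 FPKM with siRNA#1 and at 18.3, 18.2 and 17.3 FPKM with siRNA#2, against 15.4, 15.8 and 15.2 FPKM in control cells. The siRNA#1 libraries stood well below all others, and the siRNA#2 libraries all lay slightly above control. LEF1 fell by 1.03 ± 0.06 with siRNA#1 (2.04-fold, adjusted p = 9.27e-06) and was at 0.16 ± 0.06 with siRNA#2 (adjusted p = 0.0598), where 6 of 22 alternatives call it (adjusted p from 0.00628 to 0.268). Between the siRNAs the difference was -1.19 ± 0.06 (adjusted p = 3.98e-06).

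LEF1 was the main gene of its family in these cells: mean LEF1 was 7.41 times mean TCF7L2 with siRNA#1 and 11.2 times with siRNA#2, against 6.36 times in control cells. Of 11 other TCF/LEF factors and cofactors 7 were tested, with 2 rises and 3 falls under each siRNA. Among all tested genes 41.7% were called with siRNA#1 and 49.3% with siRNA#2. TCF7L2 fell with both (by 1.24, adjusted p = 8.06e-04, and by 0.65, adjusted p = 0.0150), as did the corepressor TLE3 (by 0.86, adjusted p = 3.15e-05, and by 0.69, adjusted p = 4.31e-05). The corepressor TLE1 averaged 1.70 FPKM with siRNA#1 and 7.61 FPKM with siRNA#2, against 1.34 FPKM in control cells, and rose by 2.45 ± 0.11 with siRNA#2 (adjusted p = 1.03e-06) and by 0.32 ± 0.11 with siRNA#1 (adjusted p = 0.0412). CTNNB1, the gene of beta-catenin, fell with siRNA#1 (by 0.28, adjusted p = 0.00928), and PYGO2, a coactivator that reads methylated histone H3, rose with both (by 0.37, adjusted p = 0.00179, and by 0.20, adjusted p = 0.0257). Of 9 Wnt feedback targets 2 were tested, RNF43 and ZNRF3, ubiquitin ligases that remove Wnt receptors. Neither was called with siRNA#1 (-0.08, adjusted p = 0.681, and -0.06, adjusted p = 0.754), where LEF1 fell, and both fell with siRNA#2 (by 0.71, adjusted p = 0.00229, and by 0.61, adjusted p = 0.00520), where LEF1 was not called.

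TDRD1 is a Tudor domain protein that in mouse works with PIWI proteins in the germline piRNA pathway, and lies at chr10:114179270-114232304 on the plus strand, 6949 bases from VWA2. TDRD1 was at 22.3, 24.6 and 27.3 FPKM with siRNA#1 and at 28.7, 28.9 and 28.3 FPKM with siRNA#2, against 27.7, 26.6 and 27.0 FPKM in control cells. Its siRNA#1 libraries spread across and below the control range, and its siRNA#2 libraries lay just above it. TDRD1 was at -0.16 ± 0.07 with siRNA#1 (adjusted p = 0.0973) and at 0.02 ± 0.07 with siRNA#2 (adjusted p = 0.804), with -0.18 ± 0.07 between them (adjusted p = 0.0647). Without siRNA#1 replicate 3 the first of these becomes a call (-0.24, adjusted p = 0.0139). The value between the siRNAs is called in 5 of 22 alternatives (adjusted p from 0.0114 to 0.281): under upper-quartile scaling, library totals and limma with either pseudocount, and without siRNA#1 replicate 3. Of 17 other Tudor and piRNA pathway genes 5 were tested, and no PIWI gene was among them. ASZ1, a germ-cell protein of the piRNA pathway in mouse, averaged 14.0 FPKM with siRNA#1 and 6.51 FPKM with siRNA#2, against 3.42 FPKM in control cells, and rose with siRNA#1 (by 2.01 ± 0.37, adjusted p = 0.00289), with 0.88 ± 0.36 under siRNA#2 (adjusted p = 0.0769). TDRD7, a Tudor protein of RNA granules, fell with both siRNAs (by 0.84, adjusted p = 4.64e-04, and by 0.90, adjusted p = 1.95e-04), and TDRD3 rose with both (by 0.24, adjusted p = 0.0377, and by 0.39, adjusted p = 0.00332). PLD6, which in mouse acts at mitochondria in piRNA production, rose by 0.40 with siRNA#2 (adjusted p = 0.00180) and was at 0.16 with siRNA#1 (adjusted p = 0.0963).

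HLA-DMB, the beta chain of HLA-DM, the complex that loads peptides onto MHC class II molecules, lies at chr6:32934629-32941028 on the minus strand. HLA-DMB was at 21.3, 20.1 and 18.4 FPKM with siRNA#1 and at 5.94, 6.36 and 5.12 FPKM with siRNA#2, against 7.95, 8.12 and 6.94 FPKM in control cells. The siRNA#1 libraries were far above control, and the siRNA#2 libraries were below it by a small margin. HLA-DMB rose by 1.35 ± 0.10 with siRNA#1 (2.55-fold, adjusted p = 3.19e-05) and fell by 0.46 ± 0.10 with siRNA#2 (1.37-fold, adjusted p = 0.00551), with a difference of 1.81 ± 0.10 (3.51-fold, adjusted p = 6.06e-06).

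The partner chain of HLA-DMB was nearly silent. HLA-DMA averaged 0.242 FPKM with siRNA#1 and 0.117 FPKM with siRNA#2, against 0.101 FPKM in control cells, so that mean HLA-DMB exceeded mean HLA-DMA 82.4-fold with siRNA#1 and 49.5-fold with siRNA#2, against 75.7-fold in control cells. Of 14 other class II presentation genes 3 were tested. HLA-DRB1 and HLA-DRB5, class II beta chains, rose with both siRNAs (HLA-DRB1 by 1.17 and 0.85, adjusted p = 9.25e-05 and 2.87e-04; HLA-DRB5 by 1.29 and 0.79, adjusted p = 3.37e-04 and 0.00289). These are near-identical paralogs, and reads may have been split between them, so their values are uncertain. IFI30, a lysosomal thiol reductase, fell with both (by 1.70, adjusted p = 2.81e-04, and by 2.59, adjusted p = 1.77e-05). Their alpha chain gene HLA-DRA averaged 0.509 FPKM with siRNA#1 and 0.940 FPKM with siRNA#2, against 0.482 FPKM in control cells.

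**Figure D3:**
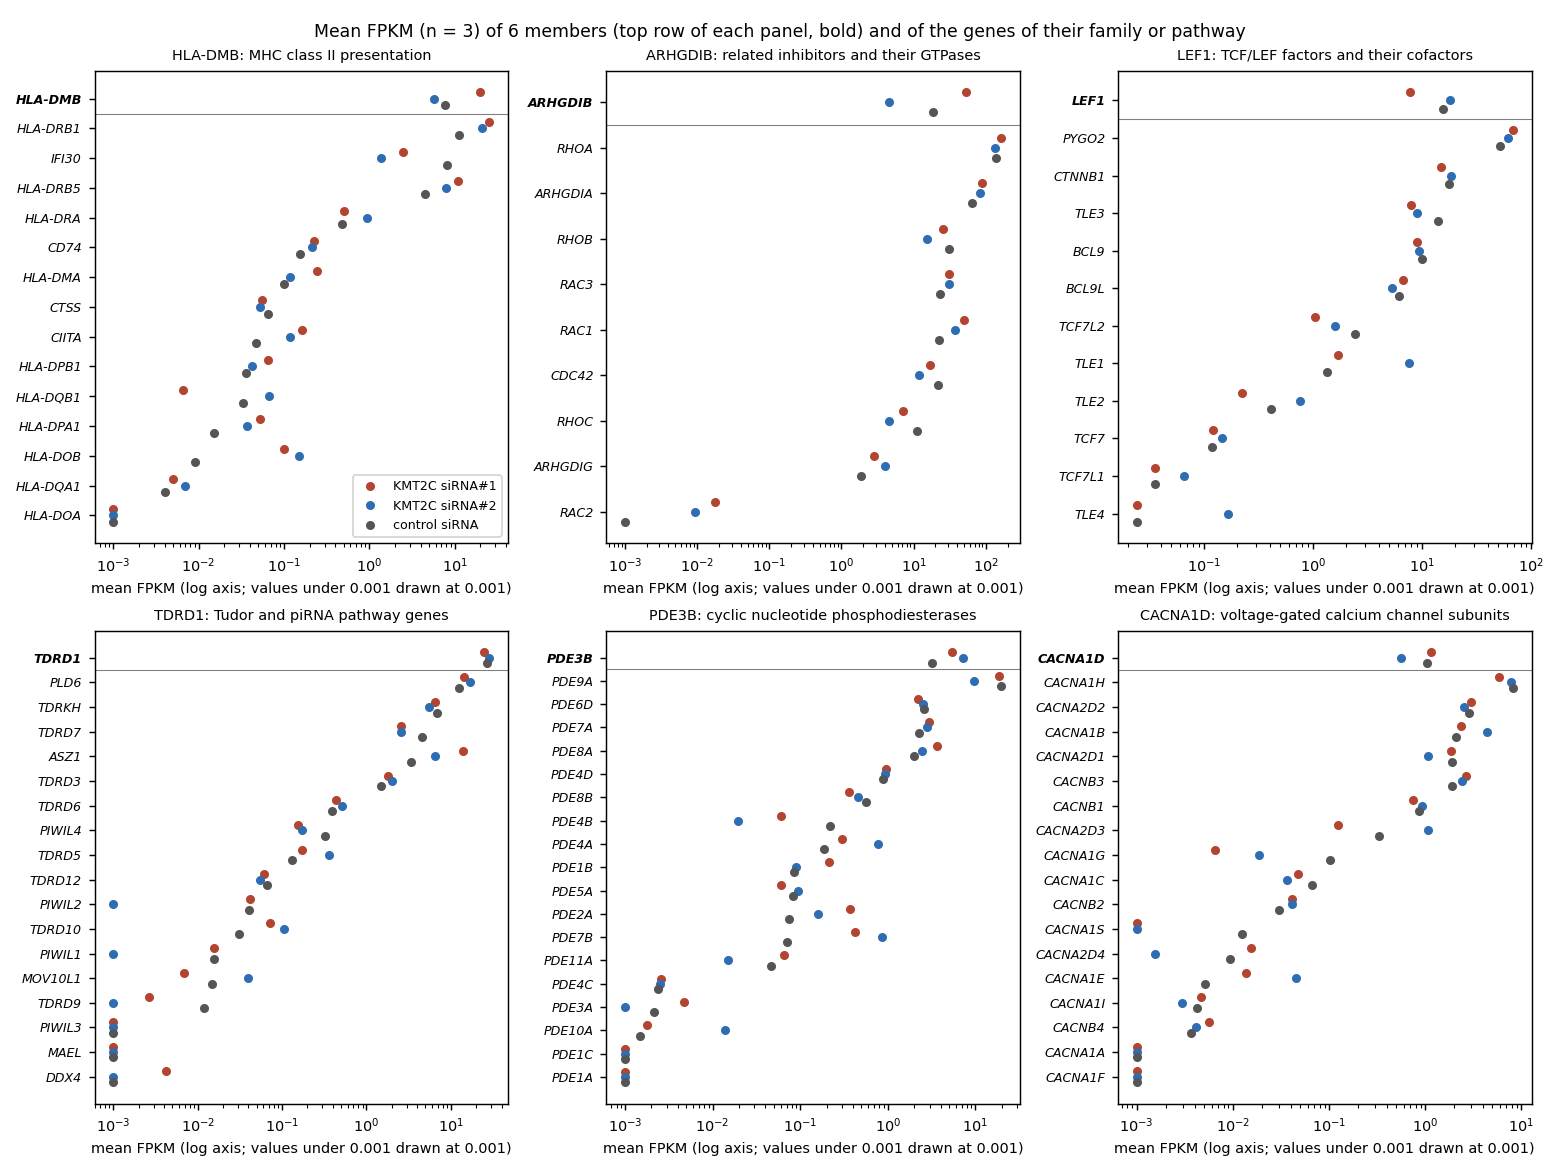
Mean FPKM (n = 3) on a log axis of 6 members, in bold at the top of each panel, and of the other genes of their families or pathways. In each row the points run from siRNA#1 at the top over siRNA#2 to Control siRNA at the bottom, and means under 0.001 FPKM are drawn at 0.001. HLA-DMA lies at or below 0.242 FPKM in all groups, far left of HLA-DMB, and ARHGDIA at 65.2 to 88.1 FPKM lies right of ARHGDIB in all groups.

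The order of the members by mean level differed between groups. In siRNA#1 cells it ran CRISP3, PLA1A, ARHGDIB, TDRD1, HLA-DMB, LEF1, PDE3B, VWA2, NCALD and CACNA1D, with the NCALD and CACNA1D ranges overlapping. In siRNA#2 cells it ran CRISP3, PLA1A, TDRD1, LEF1, VWA2, PDE3B, HLA-DMB, ARHGDIB, NCALD and CACNA1D, and the neighbours VWA2 and PDE3B overlapped, as did HLA-DMB and ARHGDIB. In control cells it ran CRISP3, PLA1A, TDRD1, ARHGDIB, LEF1, HLA-DMB, VWA2, PDE3B, NCALD and CACNA1D, with overlaps of HLA-DMB with VWA2 and of PDE3B with NCALD. ARHGDIB stood ahead of TDRD1 in siRNA#1 cells and behind HLA-DMB in siRNA#2 cells, against a place between TDRD1 and LEF1 in control cells.

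Genes linked to ERG other than the members also moved in both directions, as did tested genes in general. Of 8 further genes reported higher in ERG-fusion tumours, all tested, 3 rose and 3 fell with siRNA#1 (median log2 fold change -0.09), and 2 rose and 5 fell with siRNA#2 (median -0.54). Of all tested genes 21.2% rose and 20.5% fell with siRNA#1, and 24.4% rose and 24.9% fell with siRNA#2. KCNH8, a potassium channel, averaged 1.31 FPKM with siRNA#1 and 1.71 FPKM with siRNA#2, against 0.258 FPKM in control cells, with log2 fold changes of 2.31 (adjusted p = 1.72e-05) and 2.67 (adjusted p = 3.41e-06). Its control libraries were at 0.229 to 0.305 FPKM, so it passed the filter on low values only through the siRNA libraries, where it is high, and had to differ. It is 1 of the rises counted above with each siRNA. KCNS3, a modifier subunit of potassium channels, and ITPR3, a calcium release channel of the endoplasmic reticulum, rose with siRNA#1 (by 1.30, adjusted p = 2.57e-05, and by 0.81, adjusted p = 0.00244) and fell with siRNA#2 (by 0.59, adjusted p = 8.92e-04, and by 0.49, adjusted p = 0.0208), as did the 3 members of opposite sign. AMPD3, an AMP deaminase, and CSGALNACT1, an enzyme of chondroitin sulfate synthesis, fell with both siRNAs (AMPD3 by 1.05 and 1.64, adjusted p = 6.46e-04 and 3.47e-05; CSGALNACT1 by 1.05 and 0.91, adjusted p = 0.00108 and 0.00159). CSGALNACT1 averaged 0.830 FPKM with siRNA#1 and 0.934 FPKM with siRNA#2, against 1.70 FPKM in control cells, and likewise passed the filter through the control libraries, where it is high. It is among the falls counted above with each siRNA. F5, coagulation factor V, fell with siRNA#1 (by 0.48, adjusted p = 0.00339) and rose by 0.43 with siRNA#2 (adjusted p = 0.00489). GHR, the growth hormone receptor, fell with siRNA#2 (by 1.85, adjusted p = 3.44e-05) and was at -0.44 with siRNA#1 (adjusted p = 0.0567), and HDAC1, a histone deacetylase, was called with neither (0.26, adjusted p = 0.0868, and 0.00, adjusted p = 0.977).

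Of 13 genes reported to respond to ERG in prostate cells 7 were tested. With siRNA#1 4 fell and the other 3 were not called, beside 20.5% of all tested genes that fell. With siRNA#2 2 rose and 3 fell, beside 24.4% and 24.9% of all tested genes. YAP1, a Hippo pathway coactivator, averaged 6.63 FPKM with siRNA#1 and 10.0 FPKM with siRNA#2, against 20.1 FPKM in control cells, and fell with both (by 1.62, adjusted p = 1.04e-04, and by 1.06, adjusted p = 5.55e-04). The kinase gene PIM1 and the Wnt receptor gene FZD4 also fell with both siRNAs (PIM1 by 0.87 and 1.19, adjusted p = 2.17e-05 and 1.70e-06; FZD4 by 0.48 and 1.61, adjusted p = 0.00392 and 3.98e-06). ADAMTS1, a secreted metalloprotease, fell by 0.75 with siRNA#1 (adjusted p = 2.06e-04) and rose by 1.74 with siRNA#2 (adjusted p = 1.35e-06). EZH2, the Polycomb methyltransferase, rose by 0.40 with siRNA#2 (adjusted p = 0.00273) and was at 0.07 with siRNA#1 (adjusted p = 0.488).

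**Figure D4:**
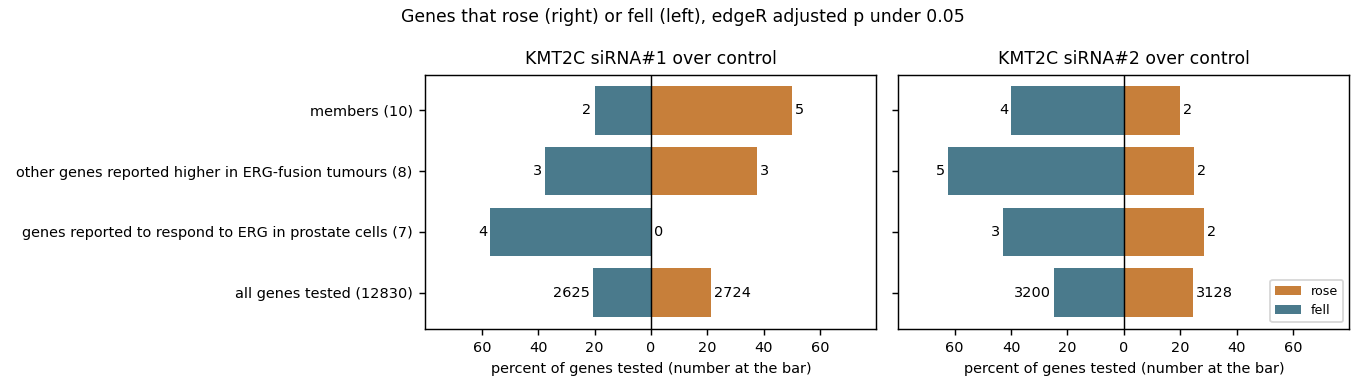
Percent of tested genes that rose (right of 0) or fell (left of 0) against Control siRNA, for the members, the 2 other lists of ERG-linked genes and all tested genes, with siRNA#1 in the left panel and siRNA#2 in the right. The number of genes stands at each bar and the number tested beside each list. The members split between rises and falls with each siRNA, 5 and 2 with siRNA#1 and 2 and 4 with siRNA#2.

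Markers of the cell line and of other cell types moved as well. Among luminal prostate markers, KLK2, KLK3 and KRT8 fell with both siRNAs (log2 fold changes with siRNA#1 and siRNA#2 of -1.52 and -2.02 for KLK2, adjusted p = 4.56e-06 and 3.57e-07, of -2.94 and -4.40 for KLK3, adjusted p = 2.27e-05 and 1.57e-06, and of -1.04 and -1.27 for KRT8, adjusted p = 4.82e-04 and 9.42e-05), and HOXB13 and KRT18 fell with siRNA#2 (by 1.18, adjusted p = 1.09e-05, and by 0.79, adjusted p = 0.00172). The 9 leukocyte markers, set beside ARHGDIB and HLA-DMB, summed to 1.58 to 1.96 FPKM with siRNA#1 and 1.51 to 2.54 FPKM with siRNA#2, against 0.656 to 1.44 FPKM in control cells, with CD2, CD3E and MS4A1 at 0 counts in all groups. CD14, the one leukocyte marker tested, was at 1.32 to 1.81 FPKM with siRNA#1 and 1.01 to 2.03 FPKM with siRNA#2, against 0.464 to 0.560 FPKM in control cells. It passed the filter only through the siRNA libraries, so its log2 fold changes of 1.49 (adjusted p = 0.00304) and 1.46 (adjusted p = 0.00248) are given as a description. The 5 endothelial markers, from a cell type that normally makes ERG, summed to at most 0.370 FPKM in any library. The 5 fibroblast markers summed to 0.691 to 0.927 FPKM with siRNA#1 and 7.16 to 12.5 FPKM with siRNA#2, against 1.57 to 2.47 FPKM in control cells, mostly from LUM, which fell with siRNA#1 (by 0.85, adjusted p = 0.0157) and rose by 2.92 with siRNA#2 (adjusted p = 1.67e-05). With siRNA#1 LUM was at 0.609 to 0.817 FPKM, so it passed the filter only through the other groups. Of 3 basal prostate markers KRT14 alone was tested, at a mean of 7.12 FPKM with siRNA#1 and 0.810 FPKM with siRNA#2, against 2.48 FPKM in control cells. The mitochondrial share of counts was 9.02% ± 0.698 with siRNA#1 and 12.05% ± 0.119 with siRNA#2, against 10.58% ± 0.503 in control cells (SD, n = 3 each). The part of these markers and shares in the members' values was not tested. In bulk RNA, fewer cells that make a transcript and less of it per cell cannot be told apart.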

How the data were processed

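RNA-seq values came from 1 table of 60612 genes. Per the file headers its columns hold counts and FPKM. The deposited expected counts are whole numbers that were not normalized, and rounding changed none. Low counts fell more often on 4 than on its neighbours. Control library 1 held 504 genes at 3, 1340 at 4 and 227 at 5. From this about 4 counts per sequenced fragment were inferred, which no source used here states. With counts divided by 4, 7 members were called with siRNA#1, 6 with siRNA#2 and 8 between the siRNAs, as without division. The FPKM were calculated by the authors, who list genes without counts at 0.0001. Bowtie 0.12.2, mm8 and hg38 are named per the submitters' processing notes, which state no role for them. No source used here names the counting tool, the annotation or the strand setting. All 10 members' coordinates overlap the gene of the same identifier in GENCODE 29 on GRCh38.

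Genes that reached 1 FPKM in 3 or more libraries were tested with edgeR 4.0.16 (R 4.3.3) by its quasi-likelihood F test after TMM scaling, fitted to all 9 libraries, 1 mean per group, 2-sided, Benjamini-Hochberg adjustment over 12830 genes at 0.05. Standard errors are the log2 fold change over the square root of F. On simulated counts for siRNA#1 against control (12830 genes), 65.7% of 67 genes changed by 1 on the log2 scale and 8.96% of 67 changed by 0.5 were recovered. Far fewer genes were changed there than were called in the data, with 115 calls against 5349. The Benjamini-Hochberg cut was therefore stricter, and these shares do not give the recovery in the data. Alternatives used limma 3.58.1 on log2(FPKM + 1) and log2(FPKM + 0.1), DESeq2 1.42.0, other scalings and filters, a replicate block and leaving out each library. No 2 replicates of a group held the same counts.

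The members and gene lists were chosen with earlier results of these data known, and several lists follow published knowledge of ERG-fusion tumours. Named genes are all members, KMT2C, ERG and TMPRSS2. From each list, up to 4 genes with the smallest adjusted p against control and genes above 10 FPKM in control cells are named. For each member the 2 genes with the highest positive Pearson's r of log2(FPKM + 1) are named too, among symbols not left out by their form. CSGALNACT1, F5, neighbouring genes and paralogs or partner chains below the filter were chosen after their values were seen. Promoter sequences are RefSeq's, on GRCh38.p14. Some marker and promoter results are not reported here.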

Additional observations from a re-analysis of the deposited data

Results flagged for a closer look

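For 8 members the effect of siRNA#1 minus that of siRNA#2, tested as a contrast by edgeR's quasi-likelihood test, passed an adjusted p of 0.05. On the log2 scale this difference was 3.56 for ARHGDIB, 1.81 for HLA-DMB, 1.16 for PLA1A, 1.09 for CACNA1D and 0.62 for CRISP3, all higher with siRNA#1. It was -1.19 for LEF1, -0.75 for VWA2 and -0.37 for PDE3B, all lower with siRNA#1. The contrast was called for 39.5% of all tested genes. CACNA1D passed the filter only through siRNA#1 and control libraries, which favours its call here. In the same contrast KMT2C differed by 0.17 (adjusted p = 0.309) and ERG by 0.08 (adjusted p = 0.260), while TMPRSS2 differed by -1.13 and was called.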

How the results depend on the processing

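The members that passed the test with siRNA#1 and with siRNA#2 kept their direction under every alternative that could be computed. Members called numbered 7 to 8 (siRNA#1), 6 to 7 (siRNA#2) and 8 to 9 (siRNA#1 against siRNA#2) when 1 library was left out, and genes called 4511 to 5082, 5508 to 6706 and 4109 to 4981. An adjusted p under 0.01 left 3423 genes with siRNA#1 and 3189 between the siRNAs. Upper-quartile scaling moved the median of all genes with siRNA#2 to 0.12 and the share of rises among its calls to 59.4%, against 49.4%.

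Uncalled values changed sign as follows. CACNA1D with siRNA#1 ranged from -0.016 to 0.31 and NCALD with siRNA#1 from -0.20 to 0.50 when 1 library was left out. TDRD1 with siRNA#2 was -0.027 under edgeR's own filter and -0.0083 without a filter. VWA2 with siRNA#2 was 0.047 under upper-quartile scaling, 0.00287 under library totals, 0.00438 and 0.00496 under limma with pseudocounts of 1 and 0.1, and -0.10 to 0.013 when 1 library was left out. The cause was not tested.

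With the replicate number as a block, 7, 6 and 8 members and 5007, 6070 and 4766 genes were called. Numbers share no stated culture, same-numbered libraries correlated at -0.0688 to 0.0393, and 0 of 9 libraries correlated best with their own number. A filter on the mean FPKM removes CACNA1D and leaves 5 members called with siRNA#2. The spread between libraries limits what NCALD can show. The value of TDRD1 between the siRNAs is called in 5 of 22 alternatives.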

Other observations

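The nearest protein-coding genes on each side that do not overlap a member were looked at after the members' values were known. They gave the following values. ERP27, which codes for a protein of the endoplasmic reticulum and lies 3493 bases from ARHGDIB, averaged 5.70 FPKM with siRNA#1 and 0.192 FPKM with siRNA#2, against 7.45 FPKM in control cells. It fell by 5.29 on the log2 scale with siRNA#2 (edgeR, adjusted p = 8.63e-06), where ARHGDIB fell as well, and was at -0.41 with siRNA#1 (adjusted p = 0.309), where ARHGDIB rose. ERP27 did not reach the filter's 1 FPKM with siRNA#2. It passed only through the other groups, where it is high, which favours that fall. PSMA1, a proteasome subunit gene 168 bases from PDE3B, averaged 23.8 FPKM with siRNA#1 and 12.1 FPKM with siRNA#2, against 24.6 FPKM in control cells, and fell by 1.08 with siRNA#2 (edgeR, adjusted p = 5.97e-06), where PDE3B rose. CCDC186, 5037 bases from TDRD1, fell with both siRNAs (by 1.23, adjusted p = 4.97e-04, and by 0.59, adjusted p = 0.0142, edgeR), where TDRD1 was not called. TKT, 72910 bases from CACNA1D, rose with both (by 0.61, adjusted p = 2.01e-04, and by 0.67, adjusted p = 6.64e-05, edgeR). HADH and RPL34, 12370 and 451609 bases from LEF1 on either side, rose with siRNA#1 (by 0.63, adjusted p = 1.04e-04, and by 0.61, adjusted p = 0.00117, edgeR), where LEF1 fell, and were not called with siRNA#2. GRHL2 and RRM2B, 16815 and 79594 bases from NCALD on either side, fell with both siRNAs (GRHL2 log2 fold changes -0.53 and -0.58, adjusted p = 1.93e-04 and 6.13e-05; RRM2B -0.25 and -0.40, adjusted p = 0.0351 and 0.00330, edgeR). PSMB9, 74777 bases from HLA-DMB, also fell with both (-1.39 and -1.13, adjusted p = 0.0113 and 0.0229, edgeR). PSMB9 averaged 0.525 FPKM with siRNA#1 and 0.648 FPKM with siRNA#2, against 1.37 FPKM in control cells. Only its control mean reached the filter's 1 FPKM, which favours a fall, so these values are given as a description. ADPRH, IL17RB and CYP2R1, 7929, 32834 and 5395 bases from PLA1A, CACNA1D and PDE3B in that order, were tested and called with neither siRNA.

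The 2 tested genes most like each member were found by Pearson's r of log2(FPKM + 1) over the 9 libraries, which fall into 3 groups, so r reflects mostly the order of 3 group means. They were ESYT1 (r = 0.996) and MAPKAPK3 (0.996) for ARHGDIB, NFXL1 (0.995) and RNF157 (0.994) for PDE3B, ZC3H7B (0.995) and PLA2G4C (0.993) for PLA1A, and MRPL32 (0.994) and MRPS33 (0.987) for CRISP3. For HLA-DMB they were ZADH2 and PEX6 (both 0.990), for LEF1 LAMC1 (0.990) and RCBTB1 (0.988), for VWA2 RGPD6 (0.988) and KLHL24 (0.987), for CACNA1D CLOCK and PEG10 (both 0.978), and for TDRD1 BTBD6 (0.974) and SLC38A2 (0.961). NCALD had the lowest values, with VANGL1 (0.934) and IBTK (0.869).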
